A study of Mus musculus with 6 samples.

Results

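Imprinted genes are those for which the copy inherited from one parent is active and the copy from the other is silent. A set of 40 such genes was followed in liver RNA from F1 male mice, and all 40 had a row among the 53715 genes of the deposited table, matched by Ensembl ID to the symbol. They were chosen by name from the imprinted domains of the mouse and not by their values. By the allele they are known to use, 21 are paternally expressed, 18 maternally expressed, and Gnas makes products from both. That assignment is textbook knowledge. The counts do not separate the alleles, so loss or gain of imprinting itself was not measured. The series has 3 control F1 and 3 FR F1 libraries of polyadenylated RNA, from livers of 8-week-old males of ICR, an outbred stock. FR is not spelled out in the labels, which give the stress as control in one group and paternal famine in the other, while the series title speaks of a paternal overdiet. The sources used here do not give how the fathers were fed or what the mothers were. The labels do not say whether the libraries of 1 group came from separate animals or litters, so the p-values take in only the spread among these 6 libraries, which may be technical. The library totals ran from 2279755 to 2730160 counts, and all 15 hepatocyte markers with a row passed the filter on low counts.

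Imprinting is set in the germ line, when egg and sperm leave different methylation marks on the DNA of control regions, and those marks are kept through the wave of demethylation after fertilisation by ZFP57, ZFP445, TRIM28 and DNMT1. Each control region acts on a cluster of genes, often through a long noncoding RNA or an insulator. Several of the genes set growth before birth, paternally expressed genes mostly raising it and maternally expressed genes mostly restraining it, and many of them are shut down in the liver after birth. The comparison asks whether the summed output of these genes differed in the livers of offspring whose fathers had been exposed. The 40 genes lie on 10 chromosomes, with 15 of them on chromosome 7, 6 on chromosome 6 and 4 each on chromosomes 2, 11 and 12.

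None of the imprinted genes passed the test between FR F1 and control F1 livers. The smallest p was that of the paternally expressed gene Peg3, which averaged 147 CPM (counts scaled to the library's normalised total) in FR F1 livers and 75 CPM in controls. The log2 fold changes of the paternally expressed genes tested had a median of 0.31. Those of the maternally expressed genes had a median of 0.00. Summed over all 21 paternally expressed genes, the level was 400 to 498 CPM in control F1 and 600 to 643 CPM in FR F1 libraries, and over all 18 maternally expressed genes it was 1110 to 1188 and 1092 to 1313 CPM. By mean level over the 6 libraries, Ddc and Peg3 were the largest contributors to the paternal sum. Imprinting of Ddc and Gab1 is taken as limited to some tissues, and the other 19, Peg3 among them, summed to 258 to 297 and 316 to 398 CPM. It is likewise limited for 8 of the maternal class, Cd81, H13, Tssc4, Ube3a, Commd1, Ppp1r9a, Trappc9 and Asb4. These 8 summed to 680 to 756 CPM in control F1 and 687 to 781 CPM in FR F1. Over the tested genes without this limit, the class medians were again 0.31 and 0.00. Of the 40 genes, 27 had enough counts to be tested and 13 did not, and the counts and medians below cover the 27 only and describe them.

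In the fit over all genes, 0 of the 27 had an adjusted p under 0.05 (edgeR quasi-likelihood test, Benjamini-Hochberg adjustment over 13022 genes), where 0.837% of all tested genes did, 0.392% as higher and 0.445% as lower in FR F1. At an unadjusted p under 0.05 there were 5, or 18.5%, beside 17.9% of all tested genes, so that share is near the background. They were Peg3, Impact, Ddc and Rian, with positive values like 9.02% of all tested genes, and Snrpn with a negative one like 8.88%. DESeq2 called 1 of the 27, Peg3, where it called 3.51% of all genes, 1.94% as higher in FR F1, and limma-voom called 0, where it called 0.791%. Without control replicate 1 edgeR called 2 of the 29 imprinted genes then tested, Ddc and Impact, where it called 651 of 13469 genes in all, or 4.83%. With every gene of at least 1 count it called 5 of 38, Ddc, Peg3, Meg3, Rian and Ube3a, where it called 1251 of 30930 genes, or 4.04%. In data simulated for this comparison, 30 of 100 genes changed 2-fold and 88 of 100 changed 4-fold were recovered among 12775 tested. Of the unchanged genes, 9 were called. The changed genes were drawn across the tested genes above a low count limit, and not at the levels of the imprinted genes.

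The parental classes are taken apart here. Of the 13 paternally expressed genes tested, 9 had positive and 4 negative log2 fold changes. In 4 of the 13, namely Peg3, Impact, Ddc and Mest, the FR F1 libraries lay wholly above the control F1 libraries, an arrangement held by 12.5% of all tested genes. In 1, Snrpn, they lay wholly below, as in 13.2% of all tested genes. Of the 13 maternally expressed genes tested, 6 had positive and 7 negative values, and in 0 did the groups separate, where 25.7% of all tested genes separated in either direction. With each of the other 3 scalings the maternal split was 7 positive and 6 negative, since Trappc9 sits at 0.00. The median of all tested genes was 0.00. The paternal median was 0.47 without control replicate 3. The difference between the classes itself was not tested.

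**Figure D1:**
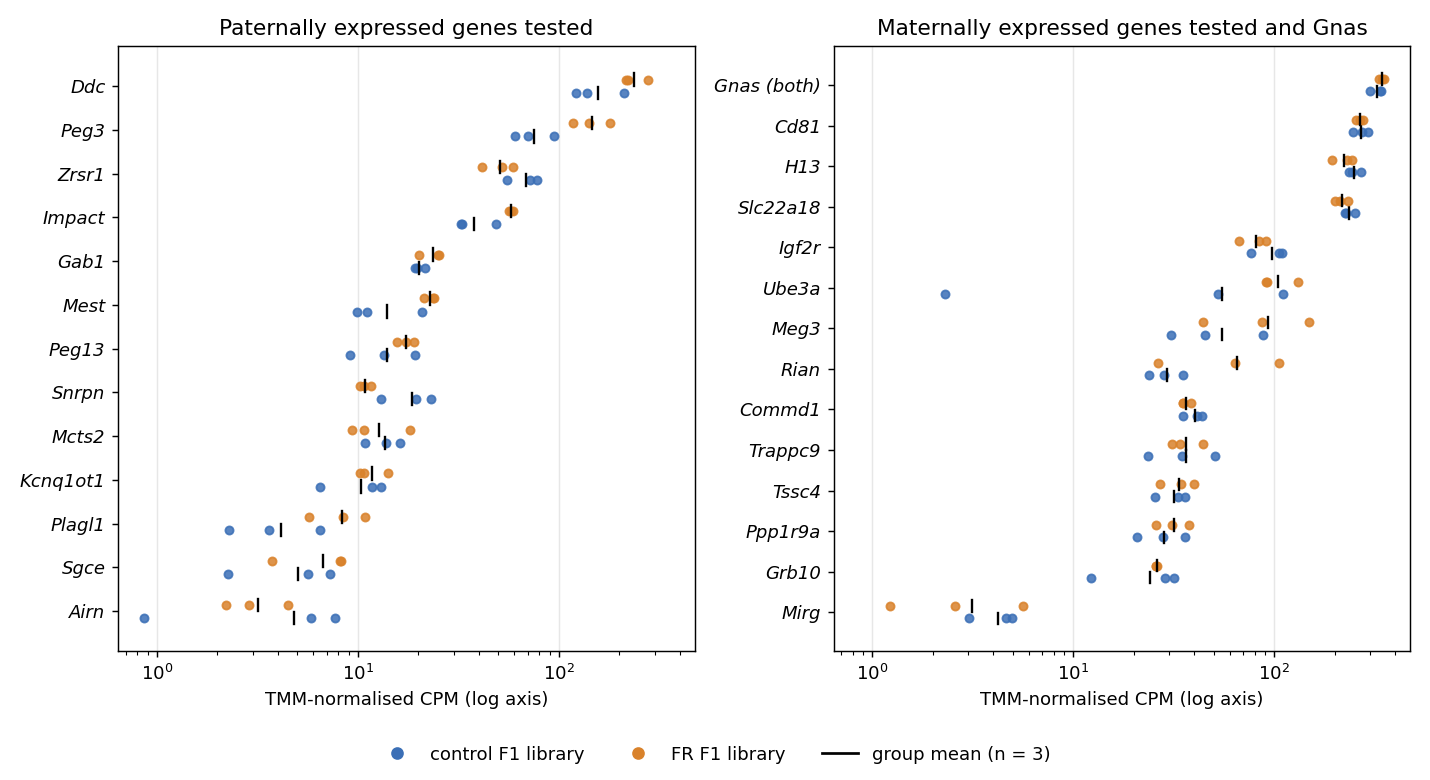
TMM-normalised CPM on a log axis for the 27 imprinted genes tested, with a point for each control F1 (blue) and FR F1 (orange) library and a black tick for the mean of 3. Peg3, Impact, Ddc and Mest have all orange points to the right of the blue ones and Snrpn all to the left, while one blue Ube3a point sits at 2.30 CPM.

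**Figure D2:**
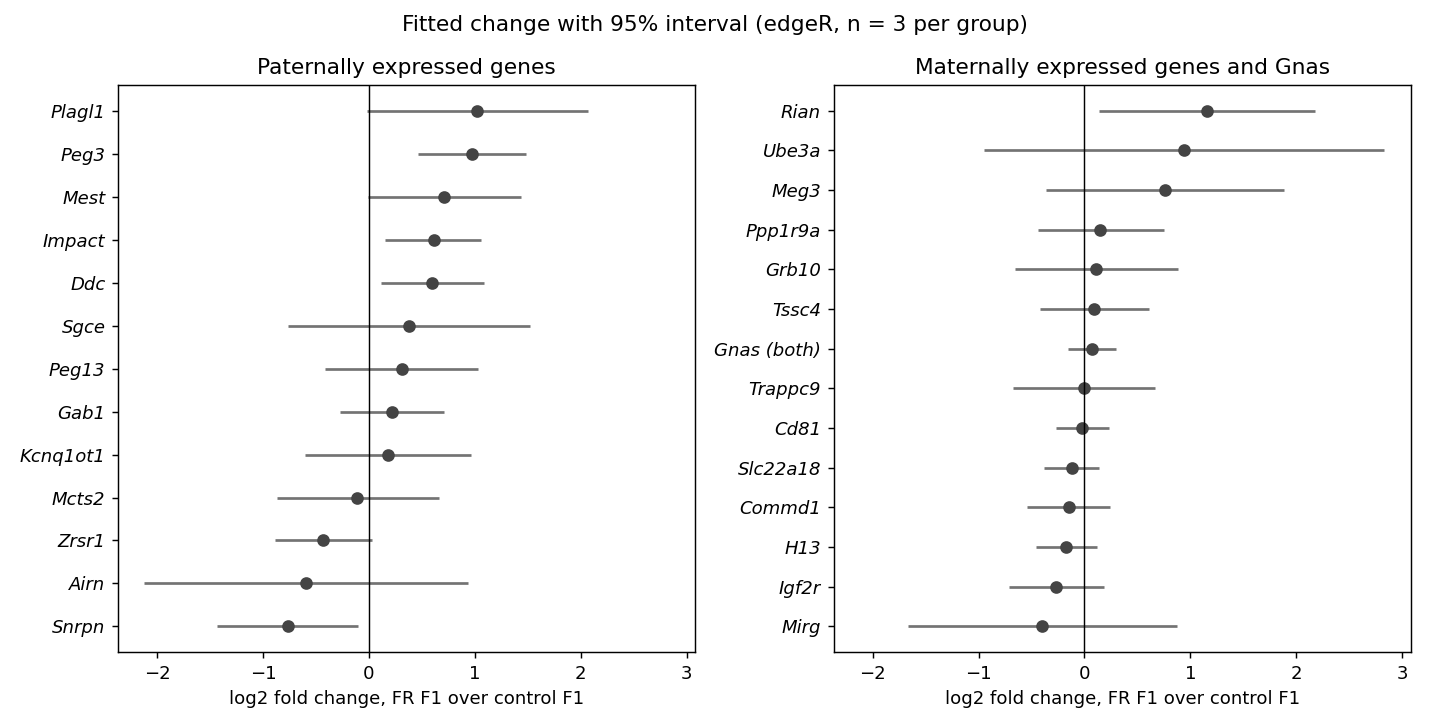
Fitted log2 fold change of FR F1 over control F1 for the same 27 genes, with 95% intervals from the edgeR fit (n = 3 per group). The intervals of Peg3, Impact, Ddc, Snrpn and Rian leave out 0 before adjustment, and none of these genes passed after adjustment over all genes.

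Peg3 encodes a large zinc finger protein and stands at the head of a domain on chromosome 7 with the paternally expressed Usp29, a deubiquitinase gene, and the maternally expressed Zim1, another zinc finger gene. Peg3 (ENSMUSG00000002265.16, chromosome 7, 6703892 to 6730431, minus strand, GRCm38) had 70.2, 94.7 and 60.2 CPM in control replicates 1, 2 and 3. In FR replicates 1, 2 and 3 it had 180, 118 and 142 CPM. The lowest FR F1 library lay above the highest control F1 library. The means were 75 ± 17.7 CPM (SD, n = 3) and 147 ± 31.4 CPM (SD, n = 3), a log2 fold change of 0.97 ± 0.22 (SE) with a 95% interval of 0.46 to 1.48. EdgeR gave an adjusted p of 0.0960, DESeq2 one of 0.00799 and limma-voom one of 0.0940, so the call depends on the tool. Usp29 counts were 0, 0 and 1 in control F1 and 3, 4 and 2 in FR F1, too few to test. Zim1 had 2 counts in all 6 libraries together.

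Peg3 and Usp29 start 164 bases apart on opposite strands, and their shared promoter region is shown because Peg3 had the smallest p of the imprinted genes. The RefSeq windows of 250 bases before to 50 after each start share 263 bases (GRCm38.p6, the reference assembly from C57BL/6J and not from ICR). Capitals mark TGACGTCA, the palindromic cAMP response element. The same letters stand in 1 window of Meg3, whose values follow below, and that window is printed for comparison. Both are written 5′ to 3′ on the gene's own strand, Peg3 from the minus strand of chr7:6730370-6730669 and Meg3 from the plus strand of chr12:109540746-109541045.
Peg3: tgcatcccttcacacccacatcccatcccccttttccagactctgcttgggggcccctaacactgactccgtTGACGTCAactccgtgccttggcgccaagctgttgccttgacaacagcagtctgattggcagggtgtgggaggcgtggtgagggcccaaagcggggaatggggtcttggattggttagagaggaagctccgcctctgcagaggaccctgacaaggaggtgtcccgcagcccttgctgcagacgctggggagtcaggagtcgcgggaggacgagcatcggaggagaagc
Meg3: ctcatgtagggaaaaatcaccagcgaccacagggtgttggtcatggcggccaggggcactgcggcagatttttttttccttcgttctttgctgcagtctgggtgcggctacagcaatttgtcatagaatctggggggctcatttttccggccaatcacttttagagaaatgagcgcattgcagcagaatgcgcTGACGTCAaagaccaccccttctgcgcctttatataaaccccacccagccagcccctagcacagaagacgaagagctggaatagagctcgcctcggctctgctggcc
TGACGTCA was found in a window of 2.03% of all 27025 genes and of 3 of the 33 imprinted genes that had one (9.09%), Peg3, Usp29 and Meg3, the first pair through the same site. Searched on both strands, TGCCGC, the core of the ZFP57 motif, was in a window of 11 of the 33 genes (33.3%) and of 13.1% of all genes with a window. Counted over windows, TGACGTCA was in 3 of the 51 windows of imprinted genes (5.88%) and in 1.79% of all 32851. TGCCGC was in 12 of the 51 (23.5%) and in 11.6% of all windows. Windows of imprinted genes held a median of 14 CpG against 7 over all windows. These matches are letters in a window and not binding sites.

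Among the other paternally expressed genes whose FR F1 libraries all lay higher, Impact encodes an inhibitor of the amino acid sensor kinase GCN2. It had 48.6, 32.9 and 32.6 CPM in control replicates 1, 2 and 3 and 58.0, 56.7 and 59.1 CPM in FR replicates 1, 2 and 3. The FR F1 libraries were close together and control replicate 1 lay nearest to them. Its log2 fold change was 0.61 ± 0.20 (SE, interval 0.15 to 1.06, adjusted p = 0.184), and it passed without control replicate 1 (adjusted p = 0.0414). Ddc, the aromatic amino acid decarboxylase gene beside Grb10 on chromosome 11, is known to be imprinted in the embryonic heart. Its levels were 210, 138 and 122 CPM in control F1 and 220, 278 and 215 CPM in FR F1, so control replicate 1 lay just under the lowest FR F1 library. The log2 fold change was 0.60 ± 0.21 (SE, adjusted p = 0.212), and 0.87 without control replicate 1 (adjusted p = 0.0305).

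Mest, a gene of the alpha/beta hydrolase fold on chromosome 6, had 20.8, 9.92 and 11.1 CPM in control F1 and 23.6, 21.4 and 23.8 CPM in FR F1 livers. Again the groups did not overlap and control replicate 1 was the highest of its group, and the log2 fold change was 0.71 ± 0.31 (SE, adjusted p = 0.284), and 1.11 without control replicate 1. Mest shares 912 of its 3945 exonic bases with Copg2 on the other strand, whose own log2 fold change was 0.00. Whether the counting used strand is unknown here, so reads of such pairs cannot be told apart. Plagl1, a zinc finger transcription factor gene that acts on other imprinted genes, had 6.50, 3.61 and 2.30 CPM in control F1 and 10.8, 8.48 and 5.74 CPM in FR F1. The groups overlapped through FR replicate 3, and the log2 fold change of 1.02 ± 0.45 (SE, adjusted p = 0.287) rests on 6 to 29 counts per library.

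Snrpn, which encodes the spliceosomal protein SmN, was the tested gene with the lowest log2 fold change. It had 19.5, 23.0 and 13 CPM in control F1 and 11.6, 10.3 and 10.7 CPM in FR F1 livers, with control replicate 3 close to the FR F1 libraries. The log2 fold change was -0.76 ± 0.29 (SE, interval -1.43 to -0.10, adjusted p = 0.230). Its annotated exons overlap those of Gm38393 by 589 and of Snurf by 216 of 2159 bases on the same strand, and Snurf is listed at 0 counts in each library. Zrsr1, a splicing factor retrogene inside an intron of Commd1, had 55.5, 77.5 and 72.1 CPM in control F1 and 52.0, 41.3 and 59.1 CPM in FR F1. It overlapped between groups through control replicate 1, and the log2 difference was -0.43 ± 0.20 (SE, adjusted p = 0.299). Its host Commd1, a copper handling gene with a maternal bias known from brain, had 35.1, 43.7 and 41.4 CPM in control F1 and 38.5, 35.0 and 34.9 CPM in FR F1. The log2 fold change of Commd1 was -0.15 ± 0.17 (SE, adjusted p = 0.654), and the pair share 412 exonic bases on opposite strands. Zrsr1 counts per count of Commd1 were 1.58, 1.77 and 1.74 in control F1 and 1.35, 1.18 and 1.69 in FR F1, overlapping in 1 library.

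The remaining paternally expressed genes tested overlapped between groups. Gab1, a docking protein gene imprinted in placenta, had 21.7, 19.8 and 19.2 CPM in control F1 and 25.1, 25.4 and 20.1 CPM in FR F1. The noncoding RNA Peg13, inside an intron of Trappc9, had 9.11, 13.5 and 19.2 CPM in control F1 and 19.1, 17.3 and 15.6 CPM in FR F1. Peg13 counts per count of Trappc9 were 0.389, 0.390 and 0.379 in control F1 and 0.614, 0.395 and 0.458 in FR F1. The control F1 ratios were near-constant and just under the lowest FR F1 ratio, a difference that was not tested. Kcnq1ot1, the antisense RNA that silences the Cdkn1c domain, had 13, 11.7 and 6.52 CPM in control F1 and 14.2, 10.3 and 10.7 CPM in FR F1. The log2 fold changes of Gab1, Peg13 and Kcnq1ot1 were 0.22 ± 0.21, 0.31 ± 0.31 and 0.18 ± 0.34 (SE, adjusted p = 0.595, 0.612 and 0.797). The Peg13 value was 0.08 without control replicate 1 and 0.61 without control replicate 3. Sgce, the epsilon-sarcoglycan gene, had 5.64, 2.25 and 7.29 CPM in control F1 and 3.74, 8.11 and 8.21 CPM in FR F1. Mcts2, a retrogene in an intron of H13, had 10.8, 16.2 and 13.8 CPM in control F1 and 9.35, 10.7 and 18.1 CPM in FR F1. The log2 fold changes of Sgce and Mcts2 were 0.38 ± 0.50 and -0.11 ± 0.33 (SE, adjusted p = 0.699 and 0.883). The Sgce value was 0.04 without control replicate 2 and 0.74 without control replicate 3. The silencing RNA Airn, antisense to Igf2r, had 0.867, 5.86 and 7.67 CPM in control F1 and 4.49, 2.21 and 2.87 CPM in FR F1. Its control F1 libraries held 2, 13 and 20 counts, so the log2 fold change of -0.59 ± 0.67 (SE, adjusted p = 0.647) has an interval of -2.12 to 0.94. It was -1.08 without control replicate 1 and -0.06 without control replicate 3.

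On the maternal side, a pair of growth regulators had enough counts for a test. Igf2r encodes the receptor that takes IGF2 up for breakdown. It had 76.3, 106 and 109 CPM in control F1 and 84.1, 91.0 and 66.9 CPM in FR F1 livers, overlapping, with a log2 fold change of -0.27 ± 0.19 (SE, interval -0.71 to 0.18, adjusted p = 0.480). That value was -0.42 without control replicate 1 and -0.14 without FR replicate 3. Grb10 encodes an adaptor that restrains the insulin and IGF1 receptors. Its level was 25.8, 26.2 and 25.9 CPM in FR F1, and 31.7, 28.4 and 12.3 CPM in control F1, where replicate 3 was low. The log2 fold change was 0.11 ± 0.34 (SE, interval -0.66 to 0.88, adjusted p = 0.875), and -0.21 without control replicate 3.

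The most abundant imprinted genes per length were Cd81, a tetraspanin gene, Slc22a18, an organic cation transporter gene, Ddc and Gnas, which encodes the stimulatory G protein alpha subunit. Their mean levels over the 6 libraries were 167, 145, 97.8 and 84.4 CPM per kilobase of the longest transcript, and the signal peptide peptidase gene H13 followed at 45.3. Among the 35 others, the highest was Tssc4 at 18.8 CPM per kilobase. Cd81 had 246, 291 and 273 CPM in control F1 and 256, 275 and 268 CPM in FR F1, and Slc22a18 had 228, 224 and 251 CPM against 213, 201 and 233 CPM. H13 had 234, 270 and 244 CPM in control F1 and 242, 230 and 193 CPM in FR F1. In these abundant genes of the maternal class the interval of the log2 fold change was narrow. Imprinting of Cd81 and H13 is taken as limited to some tissues, so their levels may not come from the maternal allele alone in liver. It ran from -0.27 to 0.23 in Cd81 (-0.02 ± 0.11, SE, adjusted p = 0.929), from -0.38 to 0.14 in Slc22a18 (-0.12 ± 0.11, adjusted p = 0.583) and from -0.46 to 0.12 in H13 (-0.17 ± 0.13, adjusted p = 0.499). Gnas had 336, 340 and 300 CPM in control F1 and 330, 341 and 352 CPM in FR F1, overlapping, with a log2 fold change of 0.07 ± 0.10 (SE, interval -0.16 to 0.30, adjusted p = 0.724). Gnas shares 1469 exonic bases with Gm20721 on the other strand, which held 5478 counts against 4977 for Gnas over all libraries. H13 shares 760 exonic bases with the opposite-strand Gm26841, whose log2 fold change was -0.49.

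Tssc4, Ppp1r9a and Trappc9 make up the rest of the measured maternal class outside the Meg3 and Ube3a loci. Tssc4, a splicing factor gene imprinted in placenta, had 25.6, 36.1 and 33.0 CPM in control F1 and 26.9, 34.3 and 39.8 CPM in FR F1. Ppp1r9a, the neurabin gene, had 20.8, 27.9 and 36.1 CPM in control F1 and 37.8, 31.0 and 25.9 CPM in FR F1. Trappc9, a vesicle tethering gene, had 23.4, 34.7 and 50.6 CPM in control F1 and 31.0, 43.9 and 34.1 CPM in FR F1. Their log2 fold changes were 0.09 ± 0.22, 0.15 ± 0.26 and 0.00 ± 0.29 (SE, adjusted p = 0.843, 0.766 and 0.999), and in each the FR F1 libraries lay among or beside the control F1 libraries. The Trappc9 value was -0.24 without control replicate 1 and 0.32 without control replicate 3.

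The noncoding RNAs Meg3, Rian and Mirg lie in 1 row on chromosome 12 and are made from the maternal allele, with the growth factor gene Dlk1 on the paternal one. Meg3 (ENSMUSG00000021268.17, 109541001 to 109571726, plus strand) had 45.1, 30.6 and 88.2 CPM in control F1 and 148, 86.6 and 43.9 CPM in FR F1 livers. Rian, the host of box C/D small nucleolar RNAs (109603940 to 109661716), had 28.2, 23.9 and 35.3 CPM in control F1 and 105, 63.7 and 26.3 CPM in FR F1. In both RNAs FR replicate 1 was highest and FR replicate 3 lay within the control F1 range, so the spread inside the FR F1 group, from 43.9 to 148 CPM in Meg3, was wider than the gap between the group means. The log2 fold changes were 0.76 ± 0.49 for Meg3 (SE, adjusted p = 0.430) and 1.16 ± 0.44 for Rian (SE, interval 0.14 to 2.18, adjusted p = 0.233). Without FR replicate 1 they were 0.27 and 0.64, and without control replicate 3 the Meg3 value was 1.29.

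Counts of Rian per count of Meg3 were 0.625, 0.779 and 0.400 in control F1 and 0.712, 0.736 and 0.598 in FR F1 libraries, with control replicate 3 lowest. Mirg, the microRNA host at the far end, did not have the same order, with 7, 11 and 12 counts in control F1 and 15, 7 and 3 in FR F1, or 3.04, 4.96 and 4.6 CPM against 5.61, 2.58 and 1.23 CPM, and its log2 difference was -0.40 ± 0.55 (SE, adjusted p = 0.714). That difference was -1.09 without FR replicate 1 and -0.03 without FR replicate 3. Per count of Meg3, Mirg had 0.0673, 0.162 and 0.0522 counts in control F1 and 0.0379, 0.0298 and 0.0280 in FR F1. All FR F1 ratios lay below all control F1 ratios, on 3 to 15 counts of Mirg. Several such ratios between neighbouring genes were looked at and none was tested, and 25.7% of all tested genes separated singly in either direction. Meg3 shares 1228 of its 18089 exonic bases with Gm26906 on the other strand, whose counts were 12, 19 and 18 in control F1 and 71, 35 and 18 in FR F1. Dlk1 had 8 counts in all 6 libraries.

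Ube3a, an E3 ubiquitin ligase gene imprinted in neurons and expressed from both alleles in most other cells, had the widest ratio between libraries of 1 group among the imprinted genes tested. It had 253, 116 and 6 counts in control replicates 1, 2 and 3, or 110, 52.3 and 2.30 CPM. The FR F1 libraries had 243, 356 and 223 counts, or 90.9, 131 and 91.5 CPM. Control replicate 3 was thus far below the next lowest library while its total of 2569934 counts was within the range of the rest. The long noncoding RNA Snhg14, which runs antisense across Ube3a, had the same order among control F1 libraries, with 101, 43 and 2 counts, and 150, 151 and 95 counts in FR F1. The opposite-strand model Gm44560 had 18, 9 and 0 counts in control F1. Ube3a shares 1803 of its 20626 exonic bases with Snhg14 and 2025 with Gm44560, and their reads cannot be told apart without the strand setting. The log2 fold change of Ube3a was 0.94 ± 0.82 (SE, interval -0.95 to 2.83, adjusted p = 0.557), 0.36 without control replicate 3, 1.97 without control replicate 1 and 1.52 with the replicate number as a block.

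**Figure D3:**
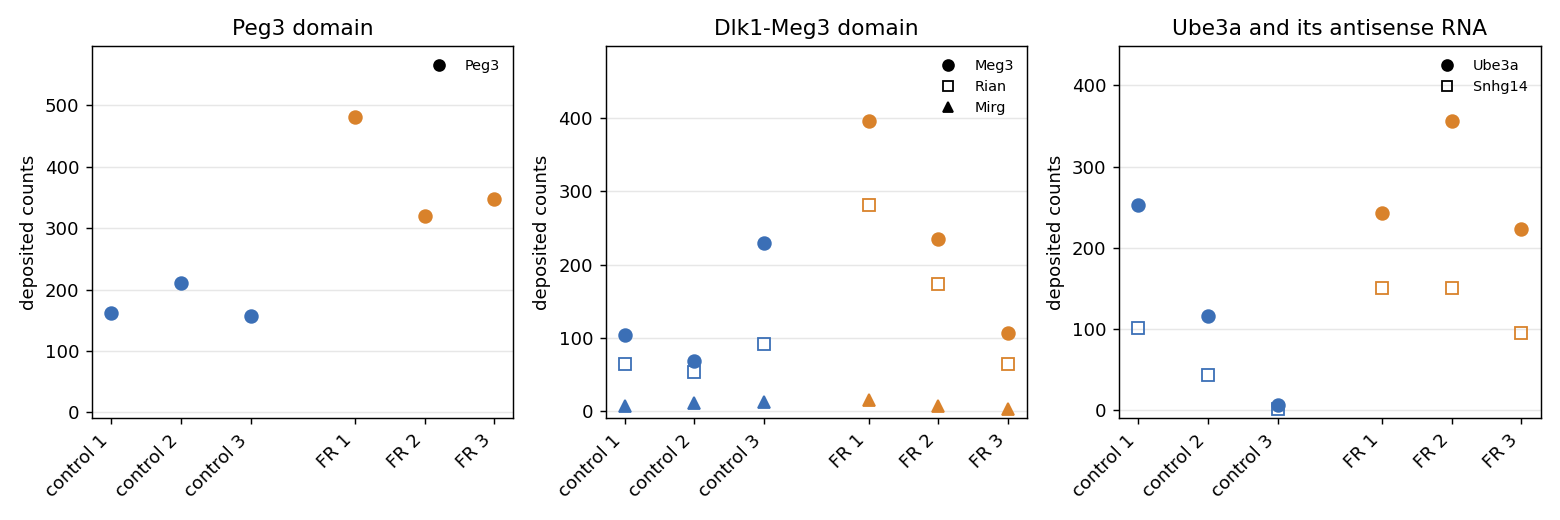
Deposited counts in each library at 3 imprinted domains, with control F1 in blue and FR F1 in orange, for Peg3, for Meg3, Rian and Mirg, and for Ube3a with its antisense RNA Snhg14. FR F1 libraries are above all control F1 libraries in Peg3 (319 to 481 against 157 to 210 counts), FR replicate 3 lies in the control range in Meg3 (107 counts), and control replicate 3 is near the axis in Ube3a (6 counts).

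Several of the genes known for growth before birth were at or near the limit of detection. Igf2, the fetal growth factor gene, and Magel2, a MAGE family gene of the Prader-Willi region, had 0 counts in all 6 libraries, and 0 of 15097176 counts allows up to 0.199 CPM (3 counts, counting error only). For Igf2 this limit has a gap, because 3596 of its 5723 exonic bases are also annotated to Gm49394 on the same strand, likewise at 0, and how the counting treated reads of 2 genes is unknown here. H19, the noncoding RNA that shares enhancers with Igf2, had 2, 1 and 1 counts in control F1 and 7, 1 and 3 in FR F1. Cdkn1c, a cell cycle inhibitor gene, had 4, 6 and 2 counts in control F1 and 12, 8 and 9 in FR F1. Its FR F1 libraries all lay above, as in 12.5% of all tested genes, but it did not reach the count needed for a test. Among the other untested genes, those of Usp29 and Nap1l5 also lay above and those of Peg10 below, on few counts.

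Phlda2, a gene that limits placental growth, had 0, 0 and 14 counts in control F1 and 0, 0 and 6 in FR F1, so its counts came from 1 library of each group, control replicate 3 and FR replicate 3. Ndn, a growth suppressor gene of the MAGE family, had 7, 1 and 6 counts in control F1 and 15, 16 and 7 in FR F1. Nnat, the neuronatin gene, had 5, 7 and 17 counts in control F1 and 8, 7 and 10 in FR F1. The other untested genes were Peg10, a retrotransposon-derived placental gene, Nap1l5, related to nucleosome assembly proteins, Asb4, a ubiquitin ligase component, Usp29, Zim1 and Dlk1. They had between 2 and 14 counts over the 6 libraries. Peg10 had 2, 4 and 3 counts in control F1 and 2, 1 and 2 in FR F1, Nap1l5 had 0, 0 and 1 against 2, 2 and 1, and Asb4 had 0, 1 and 0 against 2, 2 and 1. In all, 8 paternally and 5 maternally expressed genes were untested, and no fold change is given for them.

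A list of 50 other genes reported as imprinted in some tissue, several of them in placenta or brain alone, was read from the same fit. Of the 23 tested, 10 had positive and 13 negative log2 fold changes, the median being -0.07. EdgeR called 0, where it called 0.837% of all tested genes. An unadjusted p under 0.05 was held by 4 of the 23 and by 17.9% of all tested genes, so that count is near the background. Adam23, a metalloprotease-like cell adhesion gene, averaged 17.8 ± 0.505 CPM in controls against 39.6 ± 8.39 CPM in FR F1 (SD, n = 3), and its log2 fold change was 1.15 ± 0.22 (SE, adjusted p = 0.0664). Tfpi2, a protease inhibitor gene near Peg10, had 68.1 ± 28.6 and 141 ± 8.07 CPM, with 1.05 ± 0.27 (SE, adjusted p = 0.128). DESeq2 called both (adjusted p = 0.00576 and 0.0186) and also the creatine synthesis gene Gatm (adjusted p = 0.0252), which is named after its values were seen. These were its 3 calls among the 23, where it called 3.51% of all genes. Limma-voom called 0, where it called 0.791%. The most abundant members were Plg, the plasminogen gene, at -0.21 ± 0.08, and Slc38a4, an amino acid transporter gene, at 0.01 ± 0.17 (SE).

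Among 26 genes that keep imprints or set the marks, 21 were tested, 13 with positive and 8 with negative values and a median of 0.13. EdgeR called 0, with 4 at an unadjusted p under 0.05, a level reached by 17.9% of all tested genes. Dnmt3b, a de novo DNA methyltransferase gene, averaged 10.6 ± 2.50 CPM in controls against 31.8 ± 14.1 CPM in FR F1 (SD, n = 3). Its log2 fold change was 1.58 ± 0.37 (SE, adjusted p = 0.104). DESeq2 called it (adjusted p = 0.00979), the single call of that tool in the list, where it called 3.51% of all genes. Limma-voom called 0. Trim28, the corepressor gene that works with ZFP57, had 201 ± 7.46 and 148 ± 13.8 CPM, with -0.45 ± 0.12 (SE, adjusted p = 0.134). The most abundant were Zfp445 at -0.23 ± 0.30 and the histone methyltransferase gene Ehmt2 at -0.27 ± 0.14 (SE). Ligands, receptors and binding proteins of the IGF axis, the partners of Igf2, Igf2r and Grb10, numbered 18, and 13 were tested with a median of 0.38 and 10 positive. EdgeR called 0 of them, with 2 at an unadjusted p under 0.05, where 17.9% of all tested genes were. DESeq2 called 1, beside 3.51% of all genes, and limma-voom 0. Igfbp7 had 0.99 ± 0.19 (SE, adjusted p = 0.0732; DESeq2 adjusted p = 0.00220), and Igfals, the acid-labile subunit gene, -0.46 ± 0.11 (SE, adjusted p = 0.111). Igf1, the hormone gene, and Ghr, the growth hormone receptor gene, were the most abundant, at 0.46 ± 0.33 and 0.40 ± 0.22 (SE).

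Markers of endothelial and stellate cells had higher values in the same FR F1 libraries, as earlier results on these data had shown. All 17 sinusoidal endothelial and all 17 stellate cell and fibroblast markers had log2 fold changes above 0, the list medians being 0.93 and 0.98. EdgeR called 1 of these 34, the stellate marker Pdgfra (1.53 ± 0.26, SE, adjusted p = 0.0456), where it called 0.837% of all tested genes. An unadjusted edgeR p under 0.05 was held by 13 endothelial and 14 stellate markers, and by 17.9% of all tested genes. DESeq2 called 7 in each list, where it called 3.51% of all genes. Limma-voom called 1 in each, where it called 0.791%. The summed level of the endothelial list was 620 to 986 CPM in control F1 and 1250 to 1471 CPM in FR F1, and that of the stellate list 457 to 720 and 1057 to 1321 CPM. Hepatocyte markers summed to 6808 to 7912 and 6380 to 7168 CPM, with the limit on abundant genes given below. The sums overlapped for 16 Kupffer cell markers (549 to 1000 and 738 to 1245 CPM), 11 B and plasma cell markers (79.3 to 234 and 207 to 409 CPM), 9 cholangiocyte markers (102 to 237 and 147 to 160 CPM) and 9 erythroid markers (192 to 438 and 414 to 475 CPM). They did not for 11 T and NK cell markers (11.3 to 19.9 and 20.9 to 34.5 CPM), of which only 1 passed the filter on low counts. It was Cd4, which overlapped between groups (log2 fold change 0.23 ± 0.50, SE, edgeR adjusted p = 0.82). The T and NK sums thus rest mostly on genes with few counts. No marker of any of these lists was at 0 in all libraries. All 7 B and plasma cell markers tested had positive log2 fold changes (median 0.94), as did 15 of 16 Kupffer markers (median 0.42). An unadjusted edgeR p under 0.05 was held by 2 and 3 of these. Of 15 hepatocyte markers, 5 were positive and 10 negative (median -0.18), and in 3 the FR F1 libraries lay wholly below. Of the cholangiocyte and erythroid markers tested, 1 of 3 and 3 of 5 were positive (medians -0.15 and 0.10). The paternally expressed imprinted genes had library medians of -0.19 to 0.11 in control F1 and 0.35 to 0.46 in FR F1, as log2(CPM + 1) relative to the control F1 mean. Among the control F1 libraries, replicate 2 was lowest in the endothelial and stellate lists (-0.46 and -0.37) and replicate 3 in the paternal genes (-0.19). The maternal genes had library medians of -0.14 to 0.12 and -0.09 to 0.13. The part of these cell types in the paternal library medians, or in the levels of Peg3, Meg3, Rian, Mest, Plagl1, Adam23 and Dnmt3b, was not tested. In bulk RNA more cells of a type and more RNA per cell cannot be told apart.

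**Figure D4:**
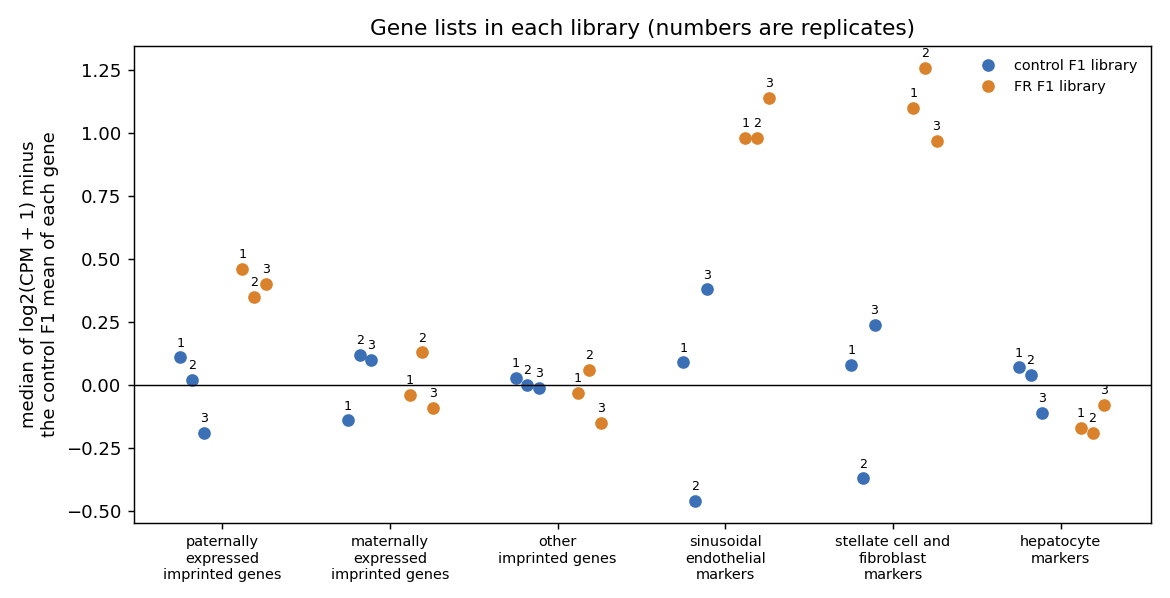
Median over each gene list of log2(CPM + 1) minus the gene's mean in control F1, for each control F1 (blue) and FR F1 (orange) library, with the replicate number beside the point. Paternally expressed imprinted genes sit at 0.35 to 0.46 in FR F1 against -0.19 to 0.11 in control F1, maternally expressed ones overlap, and the endothelial and stellate markers show a wider gap.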

How the data were processed

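Raw counts per gene for 6 liver libraries were taken as the authors deposited them, in 1 table. STAR, HTSeq, StringTie, DESeq2 and the build mm10 stand in the submitters' processing notes, without versions or roles. Annotation release, strand setting and the treatment of shared or duplicate reads: not given in the sources used here. Columns were matched to samples by the code in each description. Symbols, positions and exon overlaps came from GENCODE M21 (GRCm38), which matched 53620 of 53715 IDs, and promoter windows from RefSeq (GRCm38.p6). Only 13 of 21769 protein-coding genes (300 bases or longer) exceeded 1 count per base, and the highest value was 1.16. The hepatocyte marker Alb reached 1.14. Whether a ceiling held down the levels and fold changes of abundant genes was not tested. This limits the hepatocyte sums and the ranking per length. The imprinted genes reached at most 0.464.

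The test was that of edgeR 4.0.16 under R 4.3.3 (filterByExpr, minimum count 10 and total 15; TMM; quasi-likelihood F test, two-sided, no covariate; Benjamini-Hochberg over 13022 genes). The standard error is the log2 fold change over the square root of F. CPM are scaled to the TMM-adjusted total of the tested genes. DESeq2 1.42.0, limma-voom (limma 3.58.1), 3 scalings, 2 filters, each library left out and a replicate block were the alternatives. The fit was tested on simulated data. All 6 replicate pairs differed beyond counting noise (chi-square of 4.29 to 14.6 per degree of freedom). The imprinted genes, the lists and the alternatives were chosen with earlier results of these data known. Every imprinted gene is named; from the other lists, the 2 with smallest p and the 2 most abundant, unless stated.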

Additional observations from a re-analysis of the deposited data

How the results depend on the processing

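Of the 27 imprinted genes tested, 20 kept the sign of their log2 fold change in every alternative that could be fitted and 6 did not. Trappc9, at 0.00 with all libraries, ran from -0.24 to 0.32 with 1 library left out. The 6 turned only when 1 library was left out, over ranges of -0.08 to 0.37 (Kcnq1ot1), -0.04 to 0.24 (Tssc4), -0.09 to 0.03 (Cd81), -0.21 to 0.36 (Grb10), -0.02 to 0.37 (Ppp1r9a) and -0.43 to 0.09 (Mcts2). Values that kept their sign but moved by about 1.5 times or more ran from -0.17 to -0.07 (Slc22a18), -0.24 to -0.09 (Commd1), -0.22 to -0.07 (H13), 0.01 to 0.10 (Gnas) and 0.16 to 0.33 (Gab1) in the same fits. Other genes whose values moved as far are given with those values above. With libraries left out in turn, the paternal median ran from 0.22 to 0.47 and the maternal median from -0.09 to 0.03. In those fits the calls ran from 7 (without FR replicate 1) to 651 (without control replicate 1) over all genes, 109 with all libraries. They ran from 0 to 2 among the imprinted genes, from 0 to 3 among the other imprinted genes and from 0 to 4 in the IGF axis, each highest without control replicate 1. DESeq2 gave 457 calls over all genes, with 1 imprinted gene, 3 other imprinted genes, 1 imprint maintenance gene and 1 IGF axis gene. With every gene of at least 1 count the calls were 1251 over all genes and 5, 4, 3 and 4 in these lists. The replicate block gave 21 calls over all genes and 0 imprinted genes. Replicate numbers are shared between groups in the titles. Deviations from the group mean had correlations across genes of -0.0173, 0.108 and 0.153 in same-numbered libraries. In libraries of unlike number they ran from -0.221 to 0.155. These values do not settle whether the numbers pair the samples, and the main fit used no pairing. The cause of the differences between fits was not tested. Depth limited the 13 genes left out by the filter, and Airn and Mirg, tested on as few as 2 and 3 counts in a library, had wide intervals.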
